A study of Xenopus laevis with 16 samples.

Results

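Nodal and GATA4 were compared as 2 routes out of the same pluripotent tissue, late in culture. The comparison is formed by the Nodal5 library at 24 h, set against both GATA4 libraries of that time (GATA4-GR, and GATA4-GR with Dkk-1), which is 3 of the 16 libraries of the series. All came from animal cap explants of Xenopus laevis, the ectoderm cut from the top of blastula embryos, and poly(A) RNA was sequenced from bulk explants. The members were chosen by treatment and time from the sample labels, a rule that holds no measured value. Nodal5 explants came from embryos injected with mRNA for Nodal5. GATA4-GR explants came from embryos injected with mRNA for GATA4 joined to the part of the glucocorticoid receptor that binds hormone, a fusion that becomes active when DEX (dexamethasone) is added. GATA4-GR+Dkk-1 explants received this fusion and mRNA for Dkk-1 as well. The study activated the fusion with DEX, and it does not state whether Nodal5 explants were also given DEX. Any effect of DEX itself was not tested. Control explants were uninjected, and their libraries enter none of the tests given here except an alternative fit of all 16 libraries.

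Nodal5 is a secreted ligand of the TGF-beta family. Nodal ligands signal through activin-type receptors and Smad proteins and are known for inducing mesoderm and endoderm in the early embryo. GATA4 is a zinc-finger transcription factor of heart and endoderm that acts within the cell, and Dkk-1 is a secreted protein that blocks canonical Wnt signalling. Both overexpressed GATA4 and strong Nodal signalling are used to turn animal caps, which otherwise form epidermis, towards heart tissue.

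The 24 h libraries held 14053621 counts in Nodal5, 14944328 in GATA4-GR and 17854645 in GATA4-GR+Dkk-1, within the series' range of 11339829 to 23310320. An expected count above 0 was present for 37176, 37959 and 39564 gene models in that order. The 10 models with the most counts took 5.87% of the Nodal5 library, 4.91% of GATA4-GR and 5.28% of GATA4-GR+Dkk-1. A gene model is a predicted gene, and its measure is the expected count, an estimate that can split a read between similar copies. Such copies are frequent because X. laevis has an allotetraploid genome. The models carry identifiers and no gene names, and 0 of the 54142 identifiers were found in the RefSeq gene table. Markers of heart, endoderm, epidermis or any other tissue could therefore not be read, and the labelled tissue was not checked against them. Differences are taken between libraries within a model. Lengths were not used, so lists and classes of models by counts or CPM are not corrected for length.

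Each treatment had 1 library at each time point, so no treatment was repeated. The spread behind every test below comes from the gaps between both GATA4 libraries of a time point, pooled where more time points were fitted. It holds any effect of Dkk-1, and the Nodal5 library was assumed to vary by as much. Each model's own spread was also drawn towards that of the other models. P-values therefore measure a difference relative to these libraries, and the labels do not say whether the treatments came from separate batches of embryos. In bulk explants, fewer cells of a type and less RNA per cell cannot be told apart.

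Of the 26847 gene models with enough counts at 24 h, 8351 differed between Nodal5 and both GATA4 treatments, which is 31.1% of the models tested. They were called at an adjusted p below 0.1 by edgeR's quasi-likelihood test with Benjamini-Hochberg adjustment. Called models numbered 3810 higher in Nodal5, or 14.2% of those tested, and 4541 lower in Nodal5, or 16.9%. The excess of lower calls was lost or turned when a GATA4 library of 24 h was left out. Those fits also took in the libraries of the other time points and tested other numbers of models, and they are given with the alternatives below. At an unadjusted p under 0.05 the number with all 3 libraries was 9680. The fit left 1 residual degree of freedom, and its typical biological coefficient of variation was 0.199. The spread shared over all models weighed as 4.84 prior degrees of freedom, so each p-value rests largely on the spread of other models. The other 27295 models of the table had too few counts to be tested.

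The models higher in Nodal5 had a median CPM (counts scaled to a common library size) of 24.1 in Nodal5, against 6.21 in GATA4-GR and 6.68 in GATA4-GR+Dkk-1. Their median log2 difference was 1.52, with quartiles of 0.88 and 2.74, while the GATA4 libraries lay a median of 0.23 apart for the same models. The models lower in Nodal5 had a median CPM of 2.51 in Nodal5, against 11.1 in GATA4-GR and 11.3 in GATA4-GR+Dkk-1. Their median log2 difference was -1.87, with quartiles of -2.92 and -1.12, and the GATA4 libraries lay a median of 0.28 apart. Over all models tested the median log2 difference was -0.01 from either GATA4 library, as the scaling centres the libraries on each other, and the median absolute difference was 0.53. The GATA4 libraries lay a median of 0.23 apart over all models tested too. The called models were chosen on these same 3 libraries, so their gaps are a description.

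Models higher in Nodal5 held 33.7% of all counts in the Nodal5 library, against 15.5% in GATA4-GR and 15.7% in GATA4-GR+Dkk-1. Models lower in Nodal5 held 6.72% of the Nodal5 counts, against 21.0% in GATA4-GR and 20.1% in GATA4-GR+Dkk-1. Differences of at least 2 on the log2 scale were reached by 1478 of the higher models (38.8%) and 2133 of the lower models (47.0%). Differences of at least 4 were reached by 412 (10.8%) and 498 (10.97%). The libraries that chose these sets also gave these shares, which are a description.

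**Figure D1:**
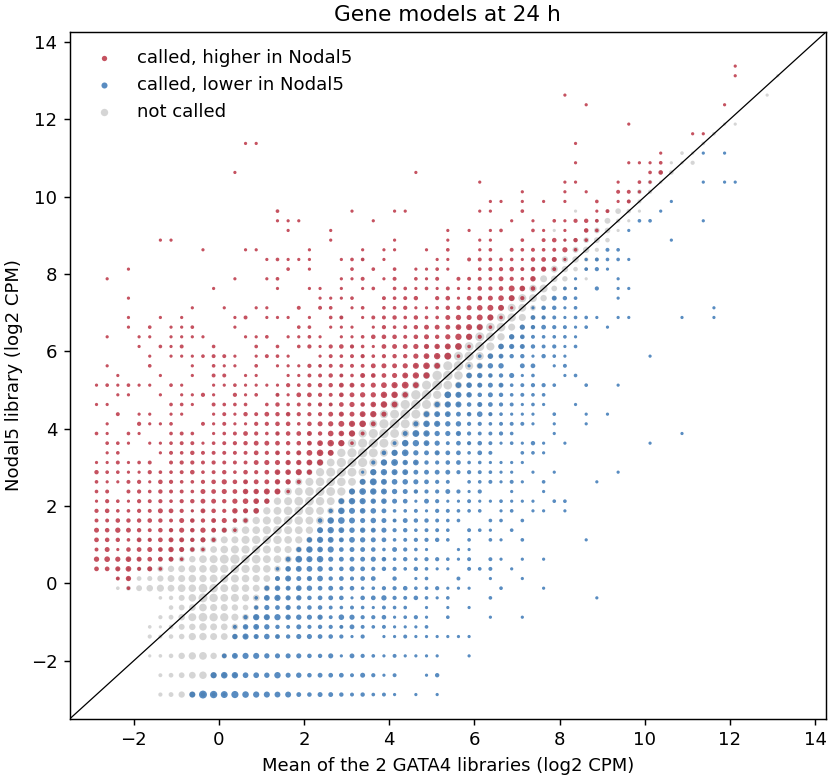
Level of the tested gene models at 24 h, in log2 CPM, with the Nodal5 library on the vertical axis and the mean of both GATA4 libraries on the horizontal axis. Models are gathered into small bins and point area grows with the number in a bin. The 3810 models called higher in Nodal5 lie above the line of equality and the 4541 called lower lie below it, over the whole range of levels.

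The differences were also counted by a rule with no test. A model was counted as outside the GATA4 range when its log2 CPM in Nodal5 lay beyond both GATA4 libraries, at least 1 from the nearer one, and further from it than the GATA4 libraries lay from each other. At 24 h this held for 6528 models, which is 24.3% of those tested, with 2613 higher and 3915 lower in Nodal5. Of them, 5711 were also called by edgeR, 2349 higher and 3362 lower. A further 2640 models were called without lying outside by this rule, and 817 lay outside without being called. The rule and the test use the same 3 libraries, so their overlap lends no support to either. At least 2 from the nearer library lay 1274 models higher and 1859 lower, at least 4 lay 332 and 386, and at least 6 lay 92 and 47. Lower models were thus the more numerous up to a distance of 4, and higher models at a distance of 6.

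The share of models called grew with their highest CPM, and the share outside the GATA4 range did not. Among models whose highest CPM in the 3 libraries was below 1, 7.54% of 2161 were called. From 1 to 10 CPM it was 27.0% of 11299, from 10 to 100 CPM 36.7% of 10697, from 100 to 1000 CPM 44.5% of 2580, and from 1000 CPM 60% of 110. The share outside the GATA4 range lay between 20.8% and 27.4% in these classes. The balance of calls also turned with CPM. Calls from 1 to 10 CPM were 1203 higher and 1847 lower in Nodal5, and from 10 to 100 CPM 1828 higher and 2096 lower. From 100 to 1000 CPM they were 715 higher and 433 lower, and from 1000 CPM 47 higher and 19 lower.

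Among the 100 models with the most counts in each library, Nodal5 shared 76 with GATA4-GR and 75 with GATA4-GR+Dkk-1, while the GATA4 libraries shared 94 with each other. Of the 129 models in any of these lists, 51 were called higher and 24 lower in Nodal5. This is 58.1% of them, beside 44.5% and 60% of all models in the classes from 100 and from 1000 CPM.

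The distance between routes was then set beside the distance within the GATA4 route. The difference between Nodal5 and GATA4-GR had an SD of 1.56 on the log2 scale over the tested models, and that between Nodal5 and GATA4-GR+Dkk-1 an SD of 1.52. GATA4-GR+Dkk-1 minus GATA4-GR had an SD of 0.56. At least 2 from GATA4-GR on the log2 scale lay 3874 models in Nodal5 (14.4%), and at least 2 from GATA4-GR+Dkk-1 lay 3821 (14.2%). Between the GATA4 libraries it was 254 (0.946%). At a distance of at least 4 the counts were 981 and 934 for Nodal5 and 16 within the GATA4 route. The Nodal5 comparisons share the Nodal5 library, so that a deviation of this library enters both.

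**Figure D2:**
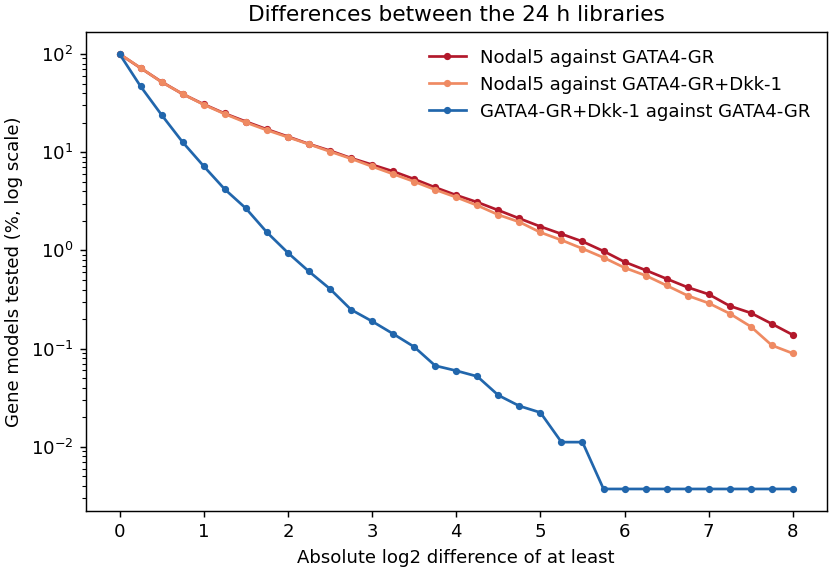
Share of the tested gene models, in percent on a log axis, whose absolute log2 difference between a pair of 24 h libraries reaches the value on the horizontal axis. At a difference of 2 the Nodal5 lines stand at 14.4% and 14.2% and the line within the GATA4 route at 0.946%.

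The GATA4 libraries lay about equally far from Nodal5. GATA4-GR+Dkk-1 was nearer to Nodal5 than GATA4-GR for 49.8% of all tested models, for 53.1% of the models called higher in Nodal5 and for 48.9% of those called lower. For the models called higher, the median log2 difference of Nodal5 was 1.498 from GATA4-GR+Dkk-1 and 1.547 from GATA4-GR. For those called lower it was -1.87 and -1.85. By at least 1 on the log2 scale, GATA4-GR+Dkk-1 lay nearer to Nodal5 in 241 of the models called higher and further in 104, and in the models called lower it lay nearer in 155 and further in 186. Over all tested models it lay nearer by that much in 843 and further in 685. No test of these shares was made.

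Some models were counted in 1 route alone. At 24 h, 63 models had at least 1 CPM in Nodal5 and 0 counts, after rounding, in both GATA4 libraries. At least 1 CPM in both GATA4 libraries and 0 counts in Nodal5 held for 168. These rules are not mirror images. The first asks for 0 counts in both GATA4 libraries, and the second in the Nodal5 library alone, which had the fewest counts at 24 h. The sizes of the sets are therefore not compared. Within the GATA4 route, with 1 library at 1 CPM or more and the other at 0, 1 model was present in GATA4-GR and at 0 in GATA4-GR+Dkk-1, and 2 the other way round. A count of 0 allows up to 3 counts, which is 0.228 CPM in Nodal5, 0.198 CPM in GATA4-GR and 0.160 CPM in GATA4-GR+Dkk-1, for counting error only. Most of these models were thinly read. The Nodal5 set had a median of 28 counts and at most 462, with 6 models at 100 or more, and the GATA4 set had a median of 44 and at most 579, with 26 at 100 or more. With up to 3 counts allowed in the lacking route the sets grew to 291 and 582, and with at least 5 CPM asked of the other route they held 13 and 27.

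Both sets were looked up in control and at earlier times. Of the 63 models counted in Nodal5 alone, 42 were at 0 in control explants of 24 h and 1 reached 1 CPM there. Of the 168 counted in GATA4 alone, 54 were at 0 in control and 47 reached 1 CPM. Control CPM was taken here from the total count alone, without the scaling that centres the libraries. A limit of 1 CPM in control is therefore not quite the limit that chose the sets. In the earlier libraries, 19 of the Nodal5 models had at least 10 counts in some Nodal5 library and 6 in some GATA4 library. Of the GATA4 models 73 had this many in some earlier GATA4 library and 18 in some earlier Nodal5 library. Shares over other models as thinly read were not taken, so these counts are a description.

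At earlier time points the routes stood closer together. By the same rule, 2019 models lay outside the GATA4 range at 2.5 h (8.34% of 24221), 3304 at 5 h (12.3% of 26777), 3257 at 7.5 h (13% of 24998) and 6528 at 24 h. Models lower in Nodal5 outnumbered those higher at every time point, with 1254 against 765 at 2.5 h, 2066 against 1238 at 5 h, 1832 against 1425 at 7.5 h and 3915 against 2613 at 24 h. The SD of the log2 difference between Nodal5 and GATA4-GR was 0.95, 1.09, 1.11 and 1.56 at these times, and that between Nodal5 and GATA4-GR+Dkk-1 was 0.83, 1.01, 1.13 and 1.52. Within the GATA4 route the SD was 0.42, 0.44, 0.45 and 0.56, so both distances were largest at 24 h. The share of models at least 1 apart within the GATA4 route was 3.61%, 4.25%, 4.4% and 7.21%. The labels mark the 5 h libraries as sequenced again, and the part of this in the 5 h values was not tested.

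**Figure D3:**
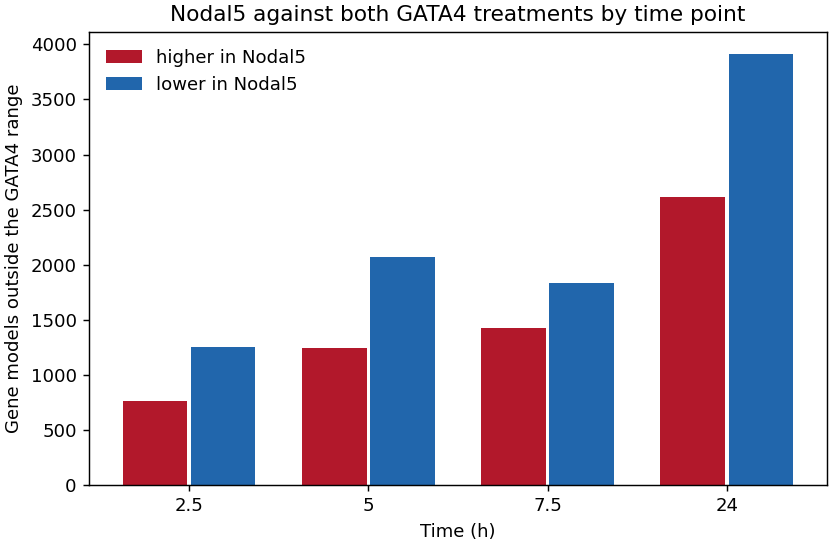
Number of gene models outside the GATA4 range in Nodal5 at the 4 time points, 2.5 to 24 h, drawn at equal spacing, with models higher in Nodal5 at the left of each pair of bars and models lower in Nodal5 at the right. At 24 h the bars stand at 2613 and 3915, against at most 1425 and 2066 before.

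The models called at 24 h were followed back in time. Of the 3810 models higher in Nodal5, 2602 (68.3%) lay outside the GATA4 range at none of the earlier times, and of the 4541 lower models 3106 (68.4%), beside 80.9% of all tested models. The higher models lay outside in the same direction in 269 cases at 2.5 h (7.06%), 574 at 5 h (15.1%) and 890 at 7.5 h (23.4%). Over all tested models the shares higher were 3.13%, 4.31% and 6.01%. The lower models lay outside in the same direction in 576 cases at 2.5 h (12.7%), 833 at 5 h (18.3%) and 918 at 7.5 h (20.2%), beside 4.93%, 6.52% and 6.94% of all tested models. In 211 higher and 378 lower models it held at every earlier time, and 42 and 20 lay outside in the opposite direction at every earlier time. How many of all tested models did either was not counted.

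Over the 26847 tested models, Pearson's r between the Nodal5 minus GATA4 difference at an earlier time and that at 24 h was 0.225 at 2.5 h, 0.374 at 5 h and 0.479 at 7.5 h. Spearman's rho was 0.090, 0.222 and 0.343. These correlations run across gene models, which are not independent replicates, and the time points share no library.

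Earlier values were also counted for the models with the largest 24 h differences. Of the 412 models higher in Nodal5 by at least 4 on the log2 scale, 80 (19.4%) were outside in the same direction at 2.5 h, 138 (33.5%) at 5 h and 228 (55.3%) at 7.5 h. Of the 498 models lower by at least 4, it was 158 (31.7%), 225 (45.2%) and 263 (52.8%). Another share was scarcely counted before 24 h. Fewer than 10 counts in each of the 9 earlier Nodal5 and GATA4 libraries were found for 117 of the 412 (28.4%) and for 117 of the 498 (23.5%), beside 9.29% of all tested models. Only the earlier GATA4 libraries were below 10 counts in 91 of the 412, and only the earlier Nodal5 libraries in 17. Of the 498 it was 6 and 174 in that order. The matching shares of all tested models were not counted, so these numbers are a description. At least 6 log2 apart at all 4 times lay 5 models higher in Nodal5 and 1 lower.

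Whether the 24 h difference was itself different from the earlier one was tested in the 12 Nodal5 and GATA4 libraries, as the difference at 24 h minus its mean over 2.5, 5 and 7.5 h. Of 29894 models tested, 7524 (25.2%) had an adjusted p below 0.1 by edgeR's quasi-likelihood test with Benjamini-Hochberg adjustment, 3356 with a more positive difference at 24 h and 4168 with a more negative one. At an unadjusted p under 0.05 it was 9418. This test and the 24 h calls share the 24 h libraries, so no overlap of them is given.

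A few models changed sides. Among those called higher in Nodal5 at 24 h, 56 had lain outside the GATA4 range on the lower side at both 5 and 7.5 h, with a median log2 difference of -2.10 at 7.5 h and 2.13 at 24 h. Among those called lower at 24 h, 52 had lain on the higher side at both 5 and 7.5 h, with medians of 2.18 at 7.5 h and -1.47 at 24 h. These sets were chosen by the values given, which are a description. Many more kept their side, but how many of all tested models lay outside at both 5 and 7.5 h was not counted. Outside on the same side at 5 and 7.5 h lay 512 higher models, with medians of 3.05 at 7.5 h and 2.73 at 24 h, and 650 lower models, with medians of -2.77 and -3.23.

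The sets called higher and lower had different time courses. Over the models called higher, the median log2 CPM in Nodal5 was 3.22, 3.50, 3.67 and 4.79 from 2.5 to 24 h. In GATA4-GR it stayed between 2.88 and 2.97 and in GATA4-GR+Dkk-1 between 2.92 and 3.05, and control lay between 2.94 and 3.11. In this set the Nodal5 median was the one that differed most between times. Over the models called lower, the Nodal5 median lay between 1.505 and 1.584 at all times, while GATA4-GR had 1.95, 2.21, 2.45 and 3.71 and GATA4-GR+Dkk-1 had 1.86, 2.12, 2.24 and 3.72. Control explants had 1.65, 1.69, 1.77 and 3.33, so that in this set the control median also was higher at 24 h than before. The 24 h values chose these sets, and their 24 h medians are a description.

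**Figure D4:**
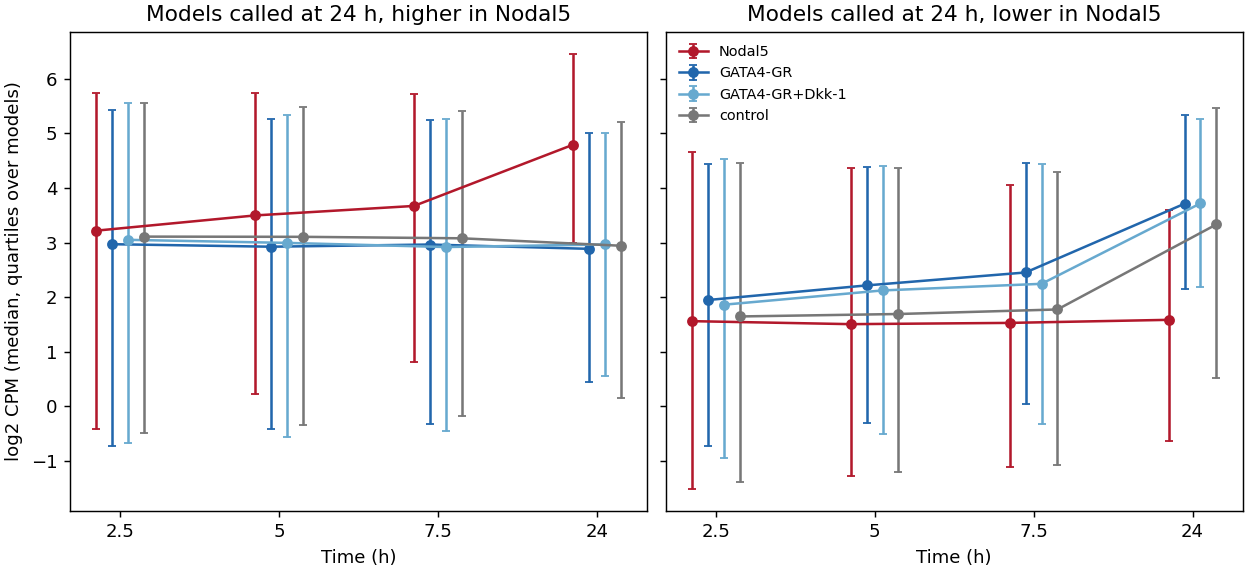
Median log2 CPM, with quartiles over models as bars, of the 3810 models called higher (left) and the 4541 called lower (right) in Nodal5 at 24 h, for each library at the 4 time points (2.5 to 24 h, at equal spacing). In the left panel the Nodal5 median reaches 4.79 at 24 h and the other libraries stay near 3, and in the right panel Nodal5 stays near 1.5 while both GATA4 libraries and control reach at least 3.33.

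Single models moved in several ways between 7.5 and 24 h. Of those called higher in Nodal5, 2056 (54.0%) were at least 1 log2 higher at 24 h than at 7.5 h in Nodal5, beside 27.4% of all tested models. In 1132 of the called models (29.7%, beside 10.6% of all tested) this held in Nodal5, with neither direction for the GATA4 libraries together. In 825 (21.65%, beside 16.3%) it was so in both routes, and in 99 (2.6%, beside 0.518%) both GATA4 libraries were lower. A further 391 (10.3%, beside 3.45%) were lower in both GATA4 libraries and within 1 log2 in Nodal5. Of the models called lower in Nodal5, 2393 (52.7%) were at least 1 log2 higher at 24 h in both GATA4 libraries, beside 25.1% of all tested models. These held 1263 that moved by less than 1 log2 in Nodal5 (27.8% of the models called lower, beside 7.93% of all tested). Another 949 were higher there too (20.9%, beside 16.3%), and 181 were lower there (3.99%, beside 0.857%). In 835 models (18.4%, beside 7.7%) Nodal5 was lower, with neither direction for the GATA4 libraries together. These changes were not tested, as each rests on 1 library per treatment and time. The 24 h values also chose the called sets, so shares above those of all tested models follow in part from that choice. The scaling factor over all 16 libraries was 0.816 for Nodal5, 0.867 for GATA4-GR, 0.912 for GATA4-GR+Dkk-1 and 0.710 for control at 24 h, and lay between 1.02 and 1.10 at earlier times. With median-of-ratios scaling, 2165 of the higher models were at least 1 log2 higher in Nodal5 and 2441 of the lower models in both GATA4 libraries.

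The 24 h control library was set beside both routes. For the models called higher in Nodal5, the median log2 difference from control was 1.51 in Nodal5 and -0.10 in the GATA4 libraries. Control lay at least 1 below both routes in 686 of them (18.0%) and at least 1 above both in 112 (2.94%). Otherwise control was nearer to Nodal5 in 812 (21.3% of the 3810) and nearer to the GATA4 libraries in 2200 (57.7%). For the models called lower, the median log2 difference from control was -1.04 in Nodal5 and 0.53 in the GATA4 libraries, control lay at least 1 above both routes in 1046 (23.03%) and at least 1 below both in 407 (8.96%), and otherwise it was nearer to Nodal5 in 1607 (35.4%) and nearer to the GATA4 libraries in 1481 (32.6%). Over all tested models control lay above both in 10.7%, below both in 9.29%, otherwise nearer to Nodal5 in 35.6% and nearer to the GATA4 libraries in 44.4%. The 24 h Nodal5 and GATA4 values chose the called sets. Their distances from control are not independent of that choice and are a description.

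By a fixed rule 4 models are given by identifier, from 1443 eligible models higher and 1690 lower in Nodal5: the one with the largest difference and the one with the highest CPM in each direction, this last among those at least 2 log2 apart. What they encode is not known from the files. Their CPM values below are on the scale of all 16 libraries, and all p-values are from edgeR's quasi-likelihood test.

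Xelaev16039176m.g had the largest difference of the higher models. It had 35109 expected counts in Nodal5 at 24 h, against 12 in GATA4-GR and 49 in GATA4-GR+Dkk-1. Its CPM in Nodal5 was 54.9 at 2.5 h and 325.6, 1553 and 3064 at the later times, while it stayed at or below 3.01 in every GATA4 library and at or below 2.10 in every control library. The log2 difference of Nodal5 was 11.50 from GATA4-GR and 9.93 from GATA4-GR+Dkk-1, with an adjusted p of 0.000212. The GATA4 libraries lay 1.58 apart at these low counts. It was thus a model read in Nodal5 explants from the first time point on, and its late minus early difference of 0.48 missed the threshold (adjusted p = 0.699). With 1 to 10 expected counts in each earlier GATA4 library, that value rests on few counts and does not show that the gap was unchanged.

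Xelaev16069497m.g had the highest CPM of the eligible higher models. It had 88208 expected counts in Nodal5 at 24 h, against 2574 in GATA4-GR and 10077 in GATA4-GR+Dkk-1. Its Nodal5 CPM was 24.1, 253.3, 906.8 and 7698 from 2.5 to 24 h. At 2.5 h Nodal5 was the lowest of the treatments, with 50.9 CPM in GATA4-GR, 53.0 in GATA4-GR+Dkk-1 and 95.3 in control. At 24 h all libraries were at their highest, with 199.0 CPM in GATA4-GR, 619.7 in GATA4-GR+Dkk-1 and 342.3 in control. The log2 difference of Nodal5 at 24 h was 5.30 from GATA4-GR and 3.64 from GATA4-GR+Dkk-1 (adjusted p = 0.00494), and the GATA4 libraries lay 1.66 apart. The late minus early difference was 2.31 (adjusted p = 0.0389).

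Xelaev16043760m.g had the largest difference of the lower models. It had 8 expected counts in Nodal5 at 24 h, against 7842 in GATA4-GR and 7688 in GATA4-GR+Dkk-1. In Nodal5 it had 0.0578 CPM at 2.5 h and 0.698 CPM at 24 h and was listed at 0 between. In GATA4-GR its CPM was 5.93, 13.9, 14.6 and 606.2 from 2.5 to 24 h, and in GATA4-GR+Dkk-1 it was 3.23, 7.72, 8.36 and 472.8. Control, at 0 at all earlier times, had 1.23 CPM at 24 h. The model was thus read in both GATA4 treatments at every time and hardly at all in Nodal5 or control. The log2 difference of Nodal5 was -9.46 from GATA4-GR and -9.12 from GATA4-GR+Dkk-1 (adjusted p = 7.96e-05). With 1, 0 and 0 counts in Nodal5 at the earlier times, its earlier difference is only bounded, and the fitted change between late and early is not given.

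Xelaev16069764m.g had the highest CPM of the eligible lower models in the GATA4 route. It had 1593 expected counts in Nodal5 at 24 h, against 45664 in GATA4-GR and 62563 in GATA4-GR+Dkk-1. Its CPM through the time course was 25.4, 21.1, 32.0 and 139.0 in Nodal5, 12230, 13310, 11150 and 3530 in GATA4-GR, and 15300, 13310, 14630 and 3848 in GATA4-GR+Dkk-1. Control had 14.6, 7.17, 15.6 and 27.6 CPM. Unlike the other models given, it was lowest in the GATA4 treatments at 24 h. Injected mRNA is counted with any model whose sequence it matches, and whether that holds for this model was not tested. The log2 difference of Nodal5 at 24 h was -4.63 from GATA4-GR and -4.78 from GATA4-GR+Dkk-1 (adjusted p = 7.54e-05). The late minus early difference was 4.28 (adjusted p = 2.58e-06), a gap that was smaller at 24 h than before. Its expected counts were not whole numbers in 100% of the libraries, as happens where reads are shared with similar models, against 25% for the models with the largest differences and 50% for Xelaev16069497m.g.

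**Figure D5:**
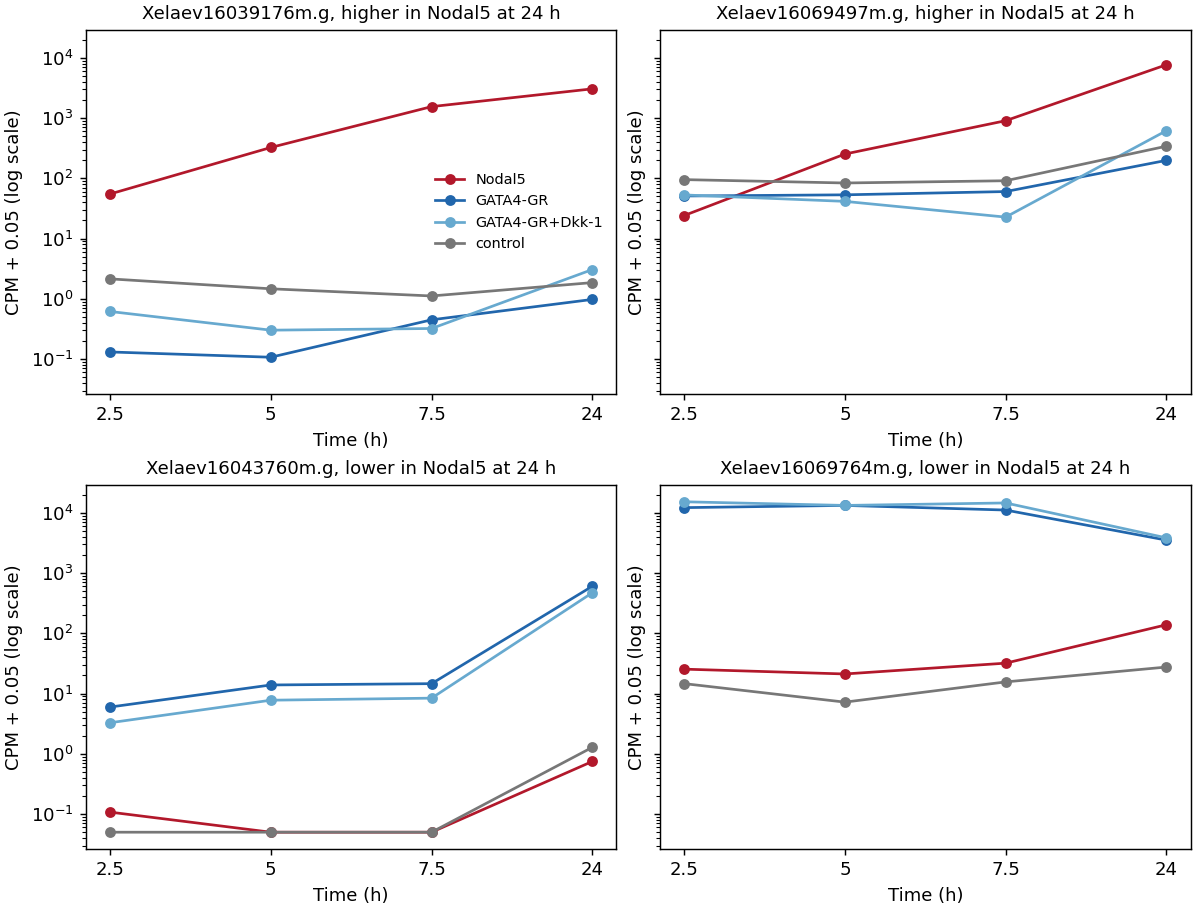
CPM, with 0.05 added and on a log axis, of the 4 models given by identifier at the 4 time points (2.5 to 24 h, at equal spacing), with a line for each treatment and 1 library per point. The upper panels hold the models higher in Nodal5, which reach 3064 and 7698 CPM there at 24 h, and the lower panels the models lower in Nodal5, where both GATA4 lines lie far above the Nodal5 line at each time.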

How the data were processed

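Poly(A) RNA of X. laevis animal cap explants filled 16 libraries, with 1 for each of Nodal5, GATA4-GR, GATA4-GR+Dkk-1 and control at each of 4 times (2.5, 5, 7.5, 24 h). The authors aligned paired-end reads to JGI gene models with Bowtie and counted them with RSEM, both also named in the submitters' processing notes. The deposited values are expected counts per gene model, not normalized. They were rounded to whole numbers. All 16 columns were mapped to samples from the labels.

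Models were filtered by edgeR's filterByExpr (minimum count 10), scaled by TMM, and tested with edgeR 4.0.16 in R 4.3.3, with Benjamini-Hochberg adjustment over all models tested and a threshold of 0.1, the threshold of the study's methods. The 24 h test used 3 libraries, with Nodal5 or not as its only term. The late against early test used 12 libraries, with time point and Nodal5 within time point, and left 4 residual degrees of freedom. Log2 differences were taken between log2 CPM values (prior count 2). Values set across time points used 1 scaling of all 16 libraries, except the counts and SDs by time point, which were filtered and scaled within each. Depth limits the precision of models with few counts. Floors and counts cover counting error only.

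Named models were 2 in each direction among those called and outside the GATA4 range with at least 100 counts in each library of the higher route: the largest log2 difference, and the highest CPM among those with a difference of at least 2. The planned marker lists and results by gene name were not run, since 0 identifiers were found in the gene table. The comparison, lists and tests were chosen with earlier results of these data known. Alternatives were the size factors, DESeq2 1.42.0, filters, thresholds, the libraries fitted, leaving out each GATA4 library, and models with whole expected counts. Thinning the libraries to the smallest total was added after seeing the data. The control libraries entered no test but the alternative fit of all 16 libraries. They also entered the scaling of all 16 libraries used across time points, and the descriptions that give control values.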

Additional observations from a re-analysis of the deposited data

Results flagged for a closer look

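The Nodal5 minus GATA4 difference at 24 h differed from the mean difference at 2.5, 5 and 7.5 h in 7524 of 29894 gene models, by the test of that change itself (edgeR's quasi-likelihood test, adjusted p below 0.1). Of the 4 models given by identifier it passed for a pair. For Xelaev16069497m.g, higher in Nodal5, the 24 h difference was 2.31 log2 above the earlier one (adjusted p = 0.0389), and for Xelaev16069764m.g, lower in Nodal5, it was 4.28 above (adjusted p = 2.58e-06), where the gap to the GATA4 libraries was the smaller one at 24 h. With 1 library per treatment and time, no group was large enough to look for a library far from its fellows.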

How the results depend on the processing

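No model called at 24 h was called in the opposite direction in any of the 12 alternatives run. Calls that were lost were not checked for direction. The alternatives with a stricter adjusted p or a minimum log2 difference reused the same fit and could not change a direction. The 8351 calls became 4743 with DESeq2's Wald test (2074 higher and 2669 lower in Nodal5), which shared 4736 of them and gave no adjusted p for 519 models; the cause was not tested. With a mean of at least 5 CPM asked, which tests fewer models (15416), there were 5008 calls (2319 higher, 2689 lower). With only the 8813 models whose expected counts were whole in all 3 libraries there were 3017 calls (1333 higher, 1684 lower). Without the GATA4-GR library calls numbered 10526 (5665 higher, 4861 lower in Nodal5) and without the GATA4-GR+Dkk-1 library 9775 (4886 and 4889), so that the excess of lower calls was lost or turned, and 92.6% and 91.2% of the original calls were shared. These fits pooled the spread of the other time points and assume that the remaining 24 h library varies alike. Their nearest match is the fit of the 12 libraries of the 3 treatments, which kept the excess of lower calls. The remaining settings gave 6127 to 10817 calls. The share of calls higher in Nodal5 lay between 41.6% and 53.8% over all settings.

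The 6528 models outside the GATA4 range became 3133 at a limit of 2 log2 (1274 higher, 1859 lower), 2800 with whole expected counts only (1127 and 1673, which is 31.8% of those models), and 3038 at a mean of at least 5 CPM (1236 and 1802, or 19.7%). Without the GATA4-GR library they numbered 8191 (3318 higher, 4873 lower) and without the GATA4-GR+Dkk-1 library 8258 (3519 and 4739). These counts ask only for a distance of at least 1 log2 from the remaining GATA4 library. By this rule lower models stayed the more numerous. The late against early test covered 29894 models, and only 5959 where whole expected counts were asked. Without the 5 h libraries it covered 29408 models, of which 5747 passed. The late against early count of 7524 became 4999 with DESeq2, 1060 with whole expected counts only and 4556 with 7.5 h as the only earlier time, and 7162 to 7573 with 1 GATA4 library left out.

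At a limit of 2 log2 between 7.5 and 24 h, 1314 of the models called higher were higher in Nodal5 and 270 lower in both GATA4 libraries, and of those called lower 1500 were higher in both GATA4 libraries and 476 lower in Nodal5. With median-of-ratios scaling these counts at 1 log2 were 2165, 700, 2441 and 1139, against 2056, 742, 2393 and 1230. Each of the 4 models given by identifier kept its direction and its call in the 11 alternatives that tested it, with adjusted p of at most 0.0308. No paired analysis was possible because the labels give no replicate numbers.

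One library per treatment and time leaves the variation between explant batches unmeasured, and a deviation of the Nodal5 library at 24 h enters every difference given. The expected counts of similar gene models share reads, and 32.8% of the models tested at 24 h had whole counts in all 3 libraries of that test.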
